A study of Mus musculus with 16 samples.

Results

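The complement genes described here were 9 of the 49315 genes in the table, taken by symbol: C1ra, C2, C4b, C3, Cfb, Cfd, Serping1, C3ar1 and C5ar1. All 9 passed the filter of 1 TPM in at least 3 libraries and were among the 24188 genes tested. Bulk RNA sequencing was done on tail intervertebral discs of 16 mice, and each library pooled 4 coccygeal discs of 1 mouse, trimmed from the endplate. Mice labelled Adam8EQ, called mutants here, carried a changed allele of the membrane metalloprotease gene Adam8, and the other mice were labelled wild type, with DBA named in the series title. Discs were labelled INTACT (3 wild-type and 4 mutant mice) or INJURED (4 wild-type and 5 mutant mice). The labels used here give neither the EQ change, the mutants' background strain, nor the age of the mice, and neither the kind of injury nor the time after it.

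Complement is a cascade of blood and tissue proteins that marks microbes, dying cells and debris. The classical route starts with C1q and its proteases C1r and C1s, which cut C4 and C2 into an enzyme that cleaves C3. The alternative route uses factor B and factor D to make another such enzyme. C1 inhibitor, the Serping1 product, blocks C1r and C1s. The fragments C3a and C5a are read by the receptors C3ar1 and C5ar1 on myeloid cells. The liver makes most of the circulating components, and many tissues also transcribe them. The healthy disc has few blood vessels and few immune cells.

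Injury in mutants went with higher transcript levels of both receptors, of C1ra and of C3, and with lower levels of C2 and C4b. C3ar1 was 36.7-fold and C5ar1 26.1-fold higher by the ratio of mean TPM, C1ra 2.82-fold and C3 2.28-fold. Single mice moved the receptor ratios: C5ar1 was 13.5-fold higher without injured mutant mouse 2 and 43.4-fold without intact mutant mouse 3, and C3ar1 24.9-fold and 54.9-fold without the same mice. TPM is reads scaled by gene length and library total. Of the 9 genes, 4 were called higher and 2 lower at a limma adjusted p under 0.05 taken over all tested genes. Over all 24188 genes 13.1% were called higher and 17.7% lower in the same comparison. The calls of C3 and C4b were narrow (limma adjusted p = 0.0496 for both), and leaving out most single mutant mice lost them. The C4b ratio of injured to intact mean TPM was 0.246, and 0.633 without intact mutant mouse 3. No call held with only the mutant libraries whose names start with M. In wild-type mice 0 of the 9 were called, where 0.116% of all genes were, and 4 of the 9 had an unadjusted limma p under 0.05, where 17.2% of all genes did. Differences below are of mean log2(TPM + 1), with the standard error of the limma fit, and on this scale changes of low genes are understated. The median difference of the 9 genes was 0.98 in mutants and 1.22 in wild-type mice, against -0.08 and 0.01 over all tested genes.

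**Figure D1:**
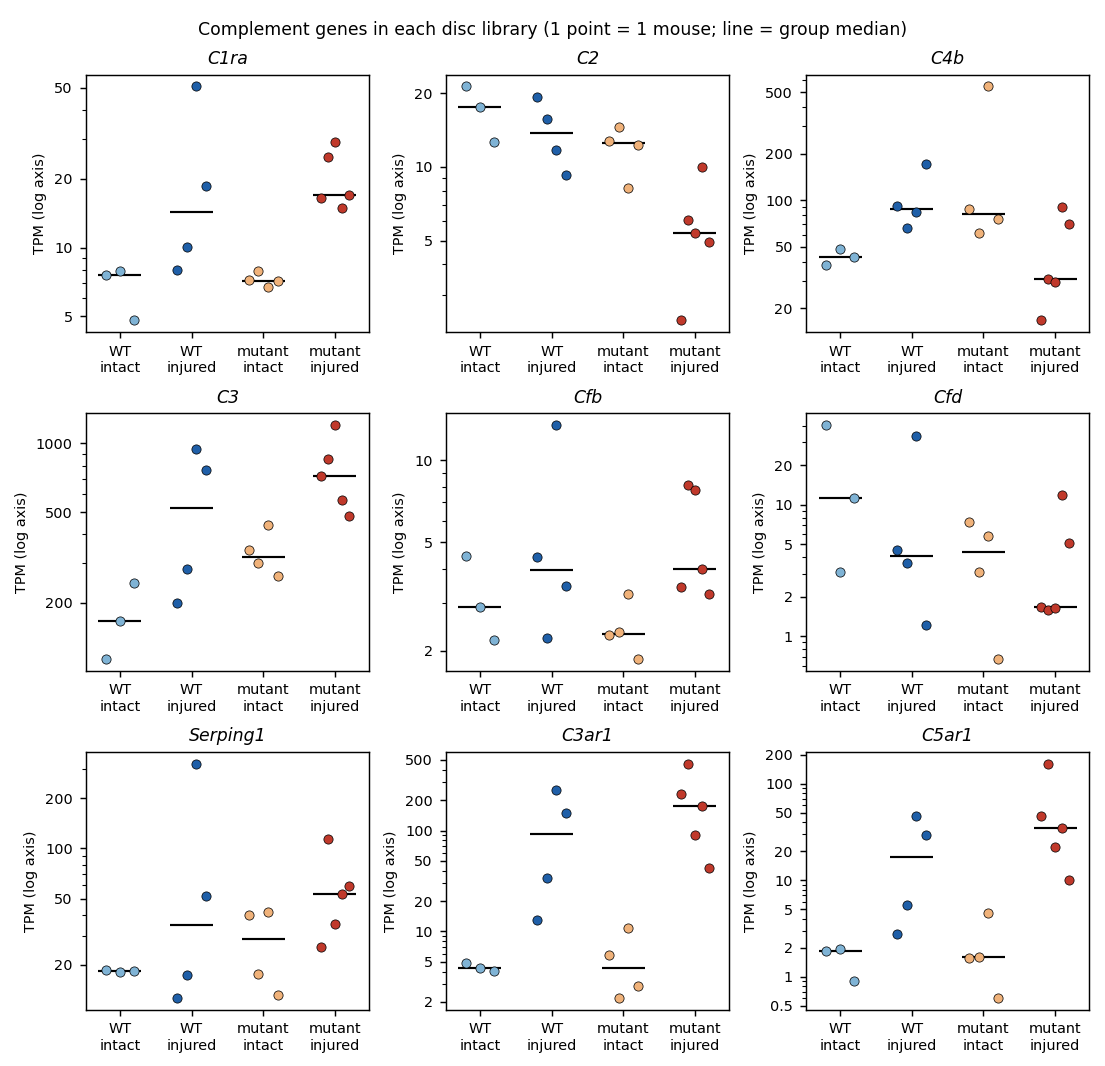
TPM of the 9 complement genes on log axes in each library, where a point is 1 mouse and a line is the median of its group. C3ar1 in injured mutants runs from 42.7 to 457 TPM, above the 2.19 to 10.8 TPM of intact mutants, while C2 in injured mutants runs from 2.36 to 9.99 TPM.

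Marker sums of several cell types moved with these comparisons. The summed TPM of 8 macrophage markers was 166 to 196 in intact and 250 to 3518 in injured wild-type discs, 156 to 217 in intact and 782 to 7702 in injured mutant discs, and 6 of the 8 were called higher with injury in mutants. The 6 fibroblast markers, of which 4 were called higher, summed to 2444 to 3171 TPM in intact and 5059 to 9913 TPM in injured mutants. Single genes made up most of these sums. Lyz2 was 5547 of the 7702 TPM of macrophage markers in injured mutant mouse 2, while Csf1r and Aif1 were not called. Dcn was 7091 of the 7437 TPM of fibroblast markers in injured mutant mouse 1, while Col15a1 differed by -0.56 in mutants and was not called. Neutrophil markers summed to 12.1 to 17.1 TPM in intact and 10.8 to 181 TPM in injured wild-type discs. In mutants their sum was 5.40 to 10.8 TPM in intact and 16.5 to 925 TPM in injured discs. Of the 6 tested, 3 were called higher in mutants (S100a8, S100a9 and Csf3r), and Mpo stayed under 1 TPM throughout. Elane and Camp were lower by value with injury, both at -0.68 in wild-type mice and -0.29 in mutants. Retnlg differed by -0.06 in wild-type mice and 1.02 in mutants, and these 3 were not called. Of 4 notochordal markers tested, 3 were called lower with injury in mutants, where 17.7% of all genes were. In wild-type mice 0 were called, with a median difference of -1.42. Their sum there was 3779 to 4886 TPM in intact and 1079 to 3854 TPM in injured discs. Of the 6 hepatocyte markers, Alb, Ttr, Ahsg and Fgb stayed under 1 TPM in every library, Ttr at 0. Apoa1 reached 1.88 TPM. Serpina1a was at 11.7 to 268 TPM and fell with injury in mutants (-2.49 ± 0.45, limma adjusted p = 0.00107). Disc cartilage markers summed to 4876 to 19160 TPM. In bulk tissue, fewer cells of a type and less RNA per cell cannot be told apart. Adam8 transcript was present in both genotypes, at 0.956 to 2.97 TPM in intact and 3.52 to 264 TPM in injured discs, so its level checks no label. In all, 3 libraries stood apart in single genes. These were intact mutant mouse 3 in C4b, injured wild-type mouse 3 in Serping1 and Cfd, and injured mutant mouse 2 in C5ar1. The injury differences of these genes are given with and without them. Injured wild-type mouse 3 was also the highest of its group in C1ra, Cfb, C3, C3ar1 and C5ar1. Leaving it out took the wild-type ratio of injured to intact mean TPM from 3.22 to 1.80 for C1ra and from 1.85 to 1.06 for Cfb. The same ratio went from 3.14 to 2.38 for C3, from 25.4 to 14.7 for C3ar1 and from 13.3 to 7.93 for C5ar1.

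The start-site sequences of the 4 genes called higher with injury in mutants are shown. Each runs from 250 bases before to 50 bases after the RefSeq start on GRCm38.p6, 5′ to 3′ on the strand of the gene. For C1ra and C5ar1 the GENCODE gene starts further upstream, at 124512405 and 16259540. Most of these 2 windows therefore lies inside the GENCODE gene, and they do not cover the region before its start in full. RefSeq sequences were found for 5 of the 9 genes, and Serping1, C4b, C2 and Cfb had no entry. Capitals mark matches, on either strand, to GGG, then 5 bases of any kind, then CC (NF-kappaB), TTGCNNAA (C/EBP), TTCNNNGAA (STAT), GAAA, 2 bases of any kind and GAAA (interferon-stimulated response element) or TGANTCA (AP-1). The windows are chr6:124512371-124512670 on the plus strand for C1ra, chr17:57228087-57228386 on the minus strand for C3, chr6:122856108-122856407 on the minus strand for C3ar1 and chr7:16259289-16259588 on the minus strand for C5ar1.
C1ra: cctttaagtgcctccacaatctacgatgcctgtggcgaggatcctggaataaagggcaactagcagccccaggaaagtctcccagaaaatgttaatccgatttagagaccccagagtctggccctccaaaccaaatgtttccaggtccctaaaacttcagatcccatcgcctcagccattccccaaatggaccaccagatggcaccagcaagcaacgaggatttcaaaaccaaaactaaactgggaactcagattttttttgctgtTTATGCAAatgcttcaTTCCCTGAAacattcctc
C3: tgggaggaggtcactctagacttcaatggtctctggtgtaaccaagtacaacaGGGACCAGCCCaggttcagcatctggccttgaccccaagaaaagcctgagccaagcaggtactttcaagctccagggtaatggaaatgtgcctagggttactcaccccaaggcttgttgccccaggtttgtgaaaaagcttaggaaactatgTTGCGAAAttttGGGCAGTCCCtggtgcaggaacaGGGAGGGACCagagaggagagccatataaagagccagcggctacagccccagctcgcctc
C3ar1: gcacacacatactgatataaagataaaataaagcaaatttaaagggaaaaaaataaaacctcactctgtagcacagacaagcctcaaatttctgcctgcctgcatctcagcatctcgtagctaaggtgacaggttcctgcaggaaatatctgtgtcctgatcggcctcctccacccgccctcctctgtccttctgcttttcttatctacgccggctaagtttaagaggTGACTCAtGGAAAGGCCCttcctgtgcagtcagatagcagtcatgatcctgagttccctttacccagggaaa
C5ar1: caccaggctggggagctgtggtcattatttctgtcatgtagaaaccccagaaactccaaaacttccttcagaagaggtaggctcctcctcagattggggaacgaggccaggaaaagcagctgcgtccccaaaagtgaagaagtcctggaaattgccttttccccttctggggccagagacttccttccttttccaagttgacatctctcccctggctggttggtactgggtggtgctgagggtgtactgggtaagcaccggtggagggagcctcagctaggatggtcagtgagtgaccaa

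The C3 window held a C/EBP match 45 bases before the start and NF-kappaB matches at 197, 33 and 10 bases before it, the first overlapping another match on the opposite strand. In C1ra a C/EBP match lay 16 bases and a STAT match 32 bases after the start. The C3ar1 window had an AP-1 match 22 bases and an NF-kappaB match 14 bases before the start. The C5ar1 window held none of the 5 letter patterns. The window of Cfd, which was not called and is not printed here, held an NF-kappaB match on both strands 111 bases before the start. Of 32851 promoter windows in the RefSeq table, 50.8% held the NF-kappaB pattern, 10.8% the C/EBP pattern, 8.30% the STAT pattern, 7.81% the AP-1 pattern and 3.44% the interferon pattern. The matches describe letters, and binding was not measured.

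C1ra encodes the protease that starts the classical route inside the C1 complex (chromosome 6, 124512405 to 124523443, plus strand). It was at 7.19, 7.91, 6.74 and 7.17 TPM in the 4 intact mutants and at 16.5, 25.0, 28.9, 14.9 and 17.0 TPM in the 5 injured mutants. Every injured mutant was above every intact one. The difference was 1.33 ± 0.42 (limma adjusted p = 0.0185). Wild-type levels were 7.63, 7.91 and 4.81 TPM in intact and 7.95, 10.1, 50.8 and 18.7 TPM in injured discs. These groups did not overlap either, but 2 injured mice lay close to the intact ones, and the difference of 1.22 ± 0.48 was not called (adjusted p = 0.207). Intact mutants and intact wild-type mice overlapped. The call in mutants was lost with only the libraries whose names start with A8 (adjusted p = 0.208) or with M (0.202), at differences of 1.32 and 1.36. C1rb, a near copy, shares 48.0% of the 50-base stretches of C1ra and was at or under 0.630 TPM, so reads of the copies may not be separable.

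C2 supplies the protease part of the classical C3-cleaving enzyme. Intact mutants had 12.8, 14.6, 8.17 and 12.3 TPM and injured mutants 2.36, 6.08, 5.38, 9.99 and 4.94 TPM. Of the 5 injured mutants 4 were below every intact one, and mouse 4 overlapped them. C2 fell by 1.01 ± 0.32 on the log2 scale (limma adjusted p = 0.0190). In wild-type mice the levels were 21.4, 17.5 and 12.6 TPM in intact and 19.3, 15.8, 11.7 and 9.31 TPM in injured discs, with a difference of -0.29 ± 0.36 (adjusted p = 0.676). The groups overlapped. Injured mutants were lower than injured wild-type mice by value, at -1.21 ± 0.32, without passing the test (adjusted p = 0.0652). Leaving out injured mutant mouse 4 (adjusted p = 0.0306) or injured wild-type mouse 3 (0.0328) put that genotype difference past the threshold. The fall in mutants missed it without intact mutant mouse 2 (0.0607), and with only the libraries named M it was -0.57 (0.350). Beside it, notochordal marker sums were 2523 to 4162 TPM in intact and 31.4 to 2426 TPM in injured mutants, and their part in the result was not tested.

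C4b encodes the C4 that the classical and lectin enzymes cut (chromosome 17, 34728380 to 34743882, minus strand). Its intact levels were 37.9, 48.5 and 42.8 TPM in wild-type and 87.6, 61.2, 546 and 75.7 TPM in mutant mice. All intact mutants were above all intact wild-type mice, and mutant mouse 3 was far above the rest. The genotype difference of 1.49 ± 0.73 was not called (limma adjusted p = 1), and without mouse 3 it was 0.78. Injured discs had 91.1, 66.6, 83.8 and 172 TPM in wild-type and 16.7, 30.9, 29.6, 89.9 and 69.9 TPM in mutant mice. Injured wild-type mice were all above the intact ones, and 3 of the 5 injured mutants were below every intact mutant. C4b fell by 1.60 ± 0.64 with injury in mutants (adjusted p = 0.0496), and in wild-type mice the difference was 1.16 ± 0.73 (adjusted p = 0.374). Without intact mutant mouse 3 the mutant difference was -0.88 and was not called (adjusted p = 0.151). Leaving out intact mutant mouse 1 or 4 or injured mutant mouse 1, 2 or 3 also lost the call, so that it failed for 6 of the 9 mutant mice, with differences of -0.88 to -1.83. The call was also lost with median-of-ratios scaling (0.0613) and quantile normalization (0.0520). The injury-by-genotype interaction, the mutant injury difference minus the wild-type one, was -2.76 ± 0.98, with an unadjusted p of 0.00711 and an adjusted p of 0.497. Of the 50-base stretches of C4b, 34.6% are shared with C4a, which stayed at or under 4.19 TPM.

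C3 is the component at which all routes meet, and its transcript was the most abundant of the 9 by mean TPM in all 4 groups (chromosome 17, 57203970 to 57228136, minus strand). Levels in intact discs were 113, 167 and 243 TPM in wild-type and 339, 298, 441 and 263 TPM in mutant mice. Intact mutants were all above intact wild-type mice. The difference of 0.98 ± 0.52 was not called (limma adjusted p = 1). Injured discs had 199, 280, 942 and 766 TPM in wild-type and 718, 851, 1204, 565 and 482 TPM in mutant mice. Injured mutants were all above intact mutants, while injured wild-type mouse 1 lay within the intact wild-type range. C3 rose by 1.14 ± 0.45 in mutants (adjusted p = 0.0496), and the wild-type difference was 1.43 ± 0.52 (adjusted p = 0.177). The mutant call was marginal and was lost when any 1 of 8 of the 9 mutant mice was left out, with adjusted p-values up to 0.119, while the difference stayed between 0.96 and 1.28. In wild-type mice C3 was called without injured mouse 1 (1.81, adjusted p = 0.0491).

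Cfb, the factor B gene, encodes the protease part of the alternative enzyme and lies on chromosome 17 at 34856374 to 34862518. A gap of 85 bases separates it from C2 (34862604 to 34898265). Both are on the minus strand, so C2 lies upstream of Cfb. Cfb was at 4.45, 2.89 and 2.197 TPM in intact wild-type, 4.42, 2.23, 13.4 and 3.46 TPM in injured wild-type, and 2.29, 2.34, 3.24 and 1.86 TPM in intact mutant discs. Injured mutants had 3.42, 8.12, 7.80, 4.00 and 3.22 TPM. Only injured mutant mouse 5 fell within the intact mutant range. The differences of 0.81 ± 0.40 in mutants (limma adjusted p = 0.121) and 0.51 ± 0.46 in wild-type mice (adjusted p = 0.555) were not called. The ratio of C2 to Cfb TPM, a measure chosen after the values were seen, was 2.52 to 6.61 in intact and 0.689 to 2.50 in injured mutants, with no overlap. The test was made on another form, the log2 ratio after adding 1 TPM to both genes, and not on the plain ratio. The mean difference of that form was -1.82 (exact two-sided permutation test, p = 0.0317, 0.0635 after adjustment over the 2 genotypes, smallest possible p 0.0159). In wild-type mice the plain ratio was 4.81 to 6.06 in intact and 0.874 to 7.08 in injured discs. The form with 1 TPM added differed by -0.80 there (exact permutation p = 0.286, smallest possible 0.0571). An annotated read-through gene, Gm20547, shares 73.0% of the stretches of Cfb and 38.7% of those of C2, and is listed at 0 in every library.

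Cfd encodes factor D, or adipsin, the protease that activates factor B and a product of fat cells (chromosome 10, 79890853 to 79892655, plus strand). Levels were 40.5, 3.06 and 11.3 TPM in intact wild-type, 4.51, 3.61, 33.3 and 1.21 TPM in injured wild-type, 7.45, 3.07, 5.76 and 0.671 TPM in intact mutant and 1.68, 1.59, 1.66, 11.9 and 5.09 TPM in injured mutant discs. All 4 groups overlapped. Injury differences were -0.95 ± 1.02 in wild-type mice (limma adjusted p = 0.613) and -0.05 ± 0.90 in mutants (adjusted p = 0.972), the latter turning to 0.0074 and 0.0068 under the 2 other scalings. Without injured wild-type mouse 3 the wild-type difference was -1.74 (adjusted p = 0.507). The sum of 6 adipocyte markers, among which Lep stayed under 1 TPM, was highest in intact wild-type mouse 1 (49.4 TPM) and injured wild-type mouse 3 (51.3 TPM), the mice with the highest Cfd. In the other 14 libraries that sum was 6.74 to 25.0 TPM. Plin4 made up most of it there, such as 19.1 of 20.6 TPM in intact wild-type mouse 2. In injured wild-type mouse 3 Plin4 was 17.1 of the 51.3 TPM. It was called lower with injury in mutants (-0.80 ± 0.28, limma adjusted p = 0.0341).

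Serping1 encodes C1 inhibitor (chromosome 2, 84765387 to 84775444, minus strand). Intact wild-type mice were close together at 18.5, 18.1 and 18.4 TPM, and injured ones had 12.7, 17.5, 321 and 51.6 TPM. Intact mutants had 39.8, 17.7, 41.8 and 13.2 TPM and injured mutants 25.7, 114, 35.3, 53.0 and 59.2 TPM. The groups overlapped in both genotypes. The injury differences of 1.23 ± 0.91 in wild-type mice (limma adjusted p = 0.446) and 0.98 ± 0.80 in mutants (adjusted p = 0.330) were not called. Without injured wild-type mouse 3 the wild-type difference was 0.29 (adjusted p = 0.877). Injured wild-type mouse 3, with the highest Serping1 of the 16, also had the highest sum of 5 endothelial markers, at 179 TPM against 1.59 to 62.0 TPM in the other libraries. It was highest in the adipocyte, mast cell, lymphocyte and red blood cell sums as well.

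C3ar1 encodes the receptor for C3a (chromosome 6, 122847138 to 122856161, minus strand). In wild-type mice it was at 4.89, 4.38 and 4.05 TPM in intact and 13.1, 34.2, 255 and 149 TPM in injured discs. Mutants had 5.83, 2.19, 10.8 and 2.88 TPM in intact and 233, 457, 90.9, 174 and 42.7 TPM in injured discs. Every injured library was above every intact library of its genotype. C3ar1 rose by 4.73 ± 0.86 in mutants (limma adjusted p = 0.00106), and the wild-type difference of 3.60 ± 0.98 did not pass (adjusted p = 0.118). It was called in wild-type mice without injured mouse 1, the lowest of its group (4.35, adjusted p = 0.0279). With only the mutant libraries named M, 2 intact and 3 injured, the mutant difference was 3.71 and was not called (adjusted p = 0.0803).

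C5ar1, the receptor for C5a (chromosome 7, 16246743 to 16259540, minus strand), followed the same order of libraries closely. Levels were 1.85, 1.96 and 0.905 TPM in intact and 2.74, 5.47, 46.4 and 29.1 TPM in injured wild-type discs. In mutants they were 1.57, 1.59, 4.60 and 0.603 TPM in intact and 45.7, 160, 22.1, 35.1 and 10.0 TPM in injured discs. Again every injured library was above every intact library of its genotype. C5ar1 rose by 3.73 ± 0.85 in mutants (limma adjusted p = 0.00330), and the wild-type difference was 2.43 ± 0.97 (adjusted p = 0.205). Without injured mutant mouse 2 the mutant difference was 3.20 and was still called (adjusted p = 0.00607). With only the mutants named M it was 2.81 (adjusted p = 0.131). Hc, the gene of the C5 precursor from which C5a is cut, reached at most 0.491 TPM in any library.

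**Figure D2:**
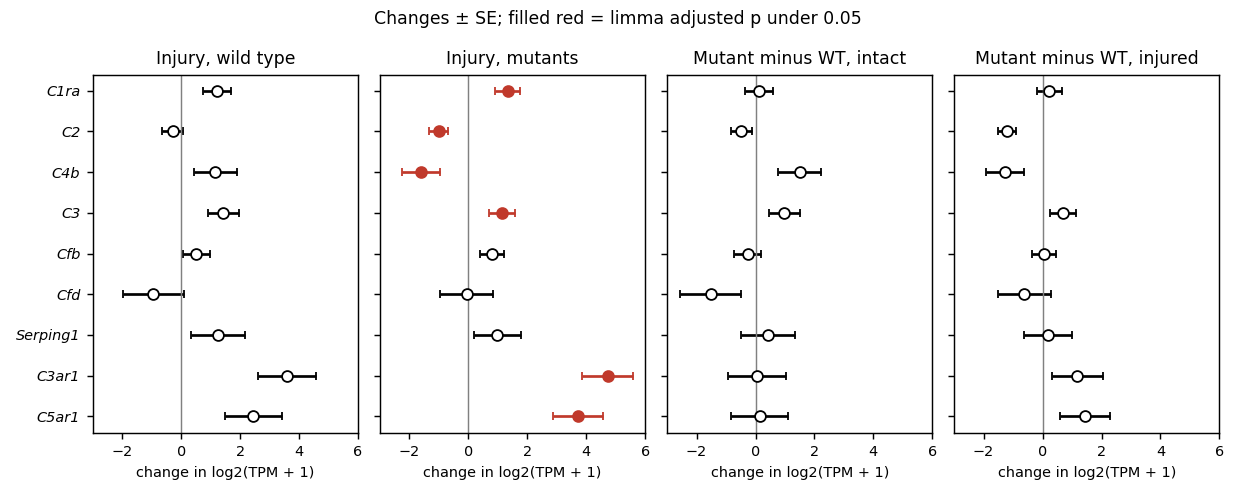
Differences of mean log2(TPM + 1) with standard errors for the 9 complement genes in 4 comparisons, where filled red points passed a limma adjusted p of 0.05. Calls appear only for injury in mutants, at 1.33 for C1ra, 1.14 for C3, 4.73 for C3ar1, 3.73 for C5ar1, -1.01 for C2 and -1.60 for C4b.

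Counted without overlap of the groups, 4 of the 9 were higher with injury in mutants (C3ar1, C5ar1, C1ra and C3), where 12% of all tested genes were. In wild-type mice 4 were (C3ar1, C5ar1, C1ra and C4b), against 9.22% of all tested genes. Between genotypes in intact discs 2 of the 9 were higher in mutants without overlap (C4b and C3), against 2.77%. By the limma test 0 of the 9 were called there, 1 having an unadjusted p under 0.05, where 0.0165% of all genes were called and 3.78% had such a p. In injured discs 0 of the 9 were called between genotypes, 2 having an unadjusted p under 0.05 (C2 and C4b), against 0.918% called and 20.3% with such a p over all genes. C3ar1 (1.18 ± 0.86) and C5ar1 (1.44 ± 0.85) were higher by value in injured mutants, and their groups overlapped. For the interaction, 0 of the 9 and 0% of all genes were called, and C4b alone of the 9 had an unadjusted p under 0.05, against 8.18% of all genes. The injury effect was thus not shown to differ between genotypes for any of the 9. The injury and genotype comparisons share groups of mice.

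Within groups, the libraries ordered these genes in different ways. Deviations from the group means of log2(TPM + 1) over the 16 libraries, which share depth and composition, correlated at r = 0.96 between C3ar1 and C5ar1, 0.81 between C1ra and Cfb and 0.79 between C1ra and Serping1. C2 and C4b stood at r = -0.02 with each other. These values describe the libraries and carry no test. The receptors followed the macrophage marker sum (r = 0.94 and rank rho = 0.96 for C3ar1, r = 0.96 and rho = 0.92 for C5ar1), and also the neutrophil sum (r = 0.88 for C3ar1 and 0.93 for C5ar1). Serping1 followed the endothelial sum (r = 0.92, rho = 0.91), Cfd the adipocyte sum (r = 0.87, rho = 0.77) and C2 the notochordal sum (r = 0.81, rho = 0.75). Other lists were also close to Serping1, at r = 0.80 for mast cell, 0.79 for macrophage, 0.78 for lymphocyte and -0.81 for epidermis sums. For Cfd the mast cell sum stood at r = 0.65 and the bone sum at -0.68. The 5 pairs with a rho were singled out after the values were seen, from 126 pairs of a gene and a marker list. Leaving out the 2 libraries farthest from the median of the marker deviation gave r = 0.92, 0.93, 0.85, 0.75 and 0.52 in the same order, so the relation of C2 rests largely on injured mutant mice 1 and 4. The part of these marker lists in the injury differences was not tested.

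**Figure D3:**
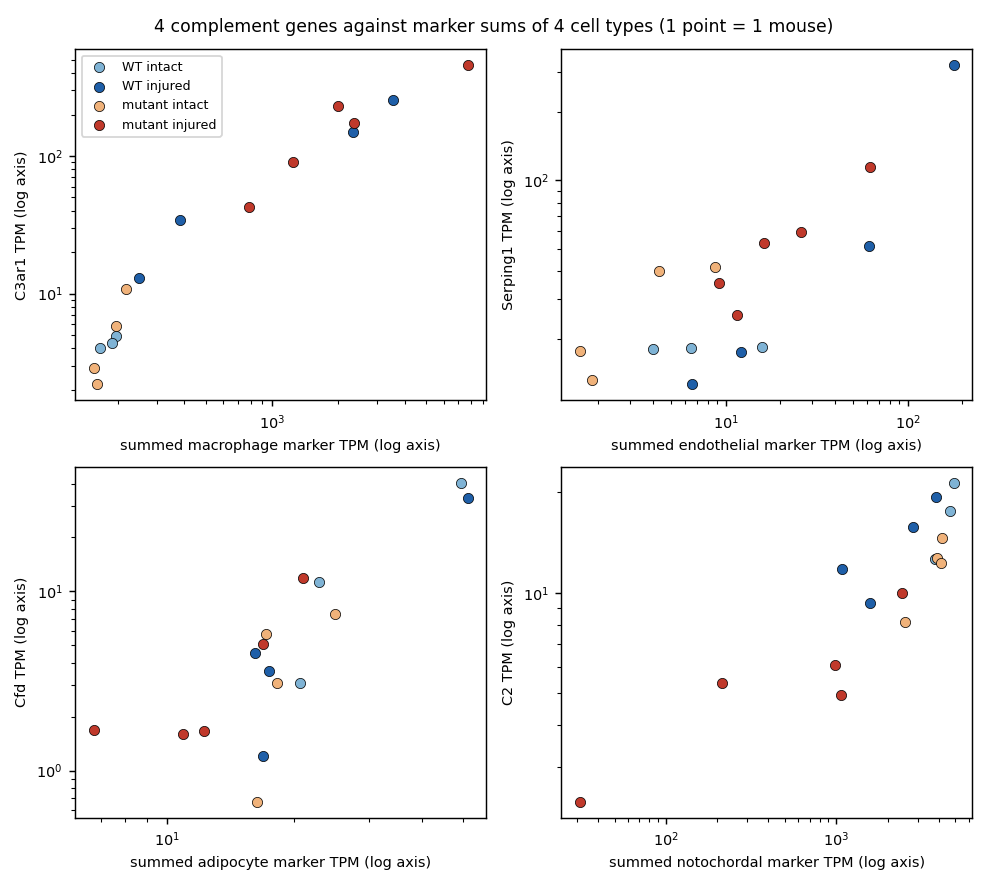
TPM of C3ar1, Serping1, Cfd and C2 against the summed TPM of macrophage, endothelial, adipocyte and notochordal markers, all on log axes, where a point is 1 mouse coloured by group. C3ar1 runs along the macrophage sum in all groups, and injured wild-type mouse 3 lies at the top for Serping1 (321 TPM).

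The genes most like each member by the same deviations, among those with a mean of at least 5 TPM were taken as a description with no test. C3ar1 was nearest to Itgb2 (r = 0.98), the beta chain of leukocyte integrins, Ctss and P2ry6. C5ar1 was nearest to Lcp1 (r = 0.98), Lilrb4a and Abcc3. Serping1 was nearest to Mmrn2 (r = 0.96), Acvrl1 and Cerk, the first 2 known from endothelial cells. Cfd was nearest to Natd1 (r = 0.78), Gcsh and Lipe, the hormone-sensitive lipase of fat cells. C1ra was nearest to Dlst (r = 0.97) and also near to Tubb6 (r = 0.94), and C3 to Dse (r = 0.93), Mfhas1 and Fbxl22. C2 was nearest to Arhgdib (r = 0.93), Caskin1 and C1qtnf1, Cfb to Srxn1 (r = 0.89), Bcl10 and Icosl, and C4b to Slurp2 (r = 0.85), Mall and Mob2.

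The other complement genes were read from lists of 50, of which 33 were tested. With injury in mutants 9 were called higher and 11 lower, where 13.1% and 17.7% of all genes were. In wild-type mice 0 were called and 11 had an unadjusted limma p under 0.05, where 17.2% of all genes did. Without injured wild-type mouse 1, Itgb2 (3.97, adjusted p = 0.0389), Cd93 (3.83, 0.0377) and C1qb (3.67, 0.0481) were called there. With only the mutant libraries named M 18 of these 20 calls were lost, and with only those named A8 10 were. The 3 chains of C1q, which binds the target before C1r acts, rose in mutants. C1qb was at 3.42 to 26.9 TPM in intact and 81.0 to 429 TPM in injured mutants (4.15 ± 0.91, limma adjusted p = 0.00267), and C1qc (3.002 ± 0.83) and C1qa (2.81 ± 0.81) rose with it. The chains of the C3-fragment receptors CR3 and CR4 rose as well: Itgb2 by 4.60 ± 0.85, Itgam by 3.62 ± 0.73 and Itgax by 2.14 ± 0.55. Itgam shares 66.3% of its 50-base stretches with Gm49368, which reached at most 0.796 TPM, so their reads may not be separable. Cd93, a C1q-related surface receptor, rose by 4.22 ± 0.87. Masp1, the lectin-route protease, fell by 2.44 ± 0.45, from 18.4 to 29.6 TPM in intact to 1.34 to 9.84 TPM in injured mutants. Among all 17 classical and lectin genes 11 were tested, with 3 called higher and 2 lower, and among the 8 other receptors, all tested, 5 were called higher and 1 lower. The macrophage marker sums given above were higher in the same discs, and their part in these changes was not tested.

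Most tested regulators, which hold complement back, fell with injury in mutants. Of 17 genes for fluid and membrane regulators 11 were tested, and in mutants 0 were called higher and 8 lower with injury, where 13.1% and 17.7% of all genes were, with a median difference of -1.16 over the 11. Of these, 7 are named here, chosen after their values were seen. Cd55, which breaks up the C3-cleaving enzymes on cell surfaces, was at 95.1 to 174 TPM in intact and 23.9 to 71.3 TPM in injured mutants and fell by 1.67 ± 0.33 (limma adjusted p = 0.00156). Cd59a, which blocks the membrane attack pore, was at 32.3 to 35.1 TPM in intact and 8.96 to 24.6 TPM in injured mutants and fell by 1.31 ± 0.27 (adjusted p = 0.00225). Clu fell by 1.58 ± 0.39, Susd4 by 1.89 ± 0.40, Cd46 by 0.76 ± 0.20, Cd55b by 0.998 ± 0.30 and Cd59b by 1.16 ± 0.18. Cd55b, at most 3.002 TPM, shares 23.0% of its 50-base stretches with the more abundant Cd55, so its value may include reads of Cd55. Cd59b shares 14.1% of its stretches with other genes, 8.74% with Efr3a, which reached 61.2 TPM, so its value may include their reads. The median difference of the 11 was -0.47 in wild-type mice, where 0 were called and 3 had an unadjusted p under 0.05, as did 17.2% of all genes. Cd59b was the only 1 of the 50 called between genotypes in injured discs (-1.002 ± 0.18, adjusted p = 0.0339, lost under 12 of 21 alternative settings), at 4.87 to 8.26 TPM in wild-type and 1.81 to 3.72 TPM in mutant mice. Serping1, the regulator among the 9, was not called in either genotype. Cfp, also named after its value was seen, encodes properdin, which steadies the alternative enzyme, and rose in mutants by 1.54 ± 0.49 (adjusted p = 0.0175). Of the 7 terminal pathway genes 2 were tested, and 0 were called in mutants. Of these, 1 had an unadjusted limma p under 0.05 (C7, -0.83 ± 0.37), as did 42% of all genes.

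**Figure D4:**
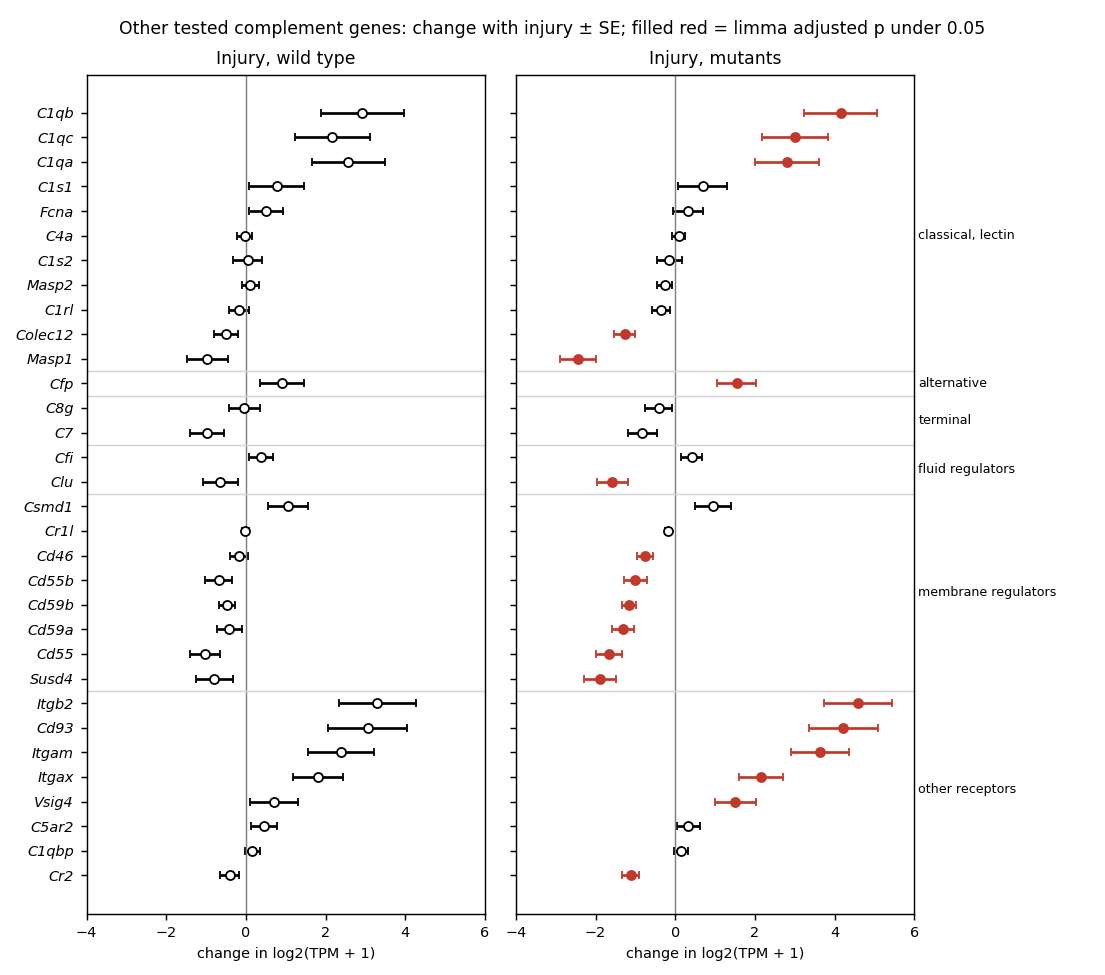
Differences of mean log2(TPM + 1) between injured and intact discs with standard errors for 32 other complement genes by role, in wild-type mice and in mutants, where filled red points passed a limma adjusted p of 0.05. In mutants the called membrane and fluid regulators lie left of 0, and the C1q chains and integrin receptors lie right of it, up to 4.60 for Itgb2.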

How the data were processed

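The authors deposited 1 table of TPM values for 16 libraries, with Ensembl identifiers paired with gene names. Per the submitters' processing notes, bcl2fastq 2.20 and GRCm38 were used. The aligner, the counting method, its strand setting and the annotation are not given in the sources used here. Per the labels' protocols RNA was extracted with Trizol and depleted of ribosomal RNA, while the molecule field names polyA RNA. Depth is not kept by TPM values, so precision was judged between mice.

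Groups came from the sample titles. Genes reaching 1 TPM in 3 or more libraries entered limma 3.58.1 in R 4.3.3 (lmFit, eBayes with trend) on log2(TPM + 1), with a pseudocount of 1, all libraries in 1 fit and Benjamini-Hochberg adjustment over 24188 genes at 0.05. The script was tested on simulated data. The ratio of C2 to Cfb was compared by exact permutation with scipy 1.17.1, on the log2 scale after adding 1 TPM to both genes. Positions and shared 50-base stretches came from GENCODE M21, and start-site sequences from RefSeq. The members and lists were chosen with earlier results of these data known. Named besides the members were genes called in an injury comparison, up to the 8 largest changes in mutants, and others only where said, and some items that the rules or counts include are not reported here by name. Library names start with A8 or M in mutants and with D in wild-type mice, so this naming and genotype cannot be told apart. Same-numbered libraries are different mice and were not paired. The alternatives were another pseudocount (0.1), other filters (none, or a mean of 5 TPM), scalings, weights and fits, a replicate block, library naming and leaving out each mouse. Leaving out 3 libraries together was added after the data were seen.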

Additional observations from a re-analysis of the deposited data

Results flagged for a closer look

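In 4 of 27 groups of a gene, 1 library lay far from the others on the TPM scale by Dixon's test, which chance does in about 1 in 20 groups. These were C4b in intact mutant mouse 3 (546 TPM), Serping1 and Cfd in injured wild-type mouse 3 (321 and 33.3 TPM) and C5ar1 in injured mutant mouse 2 (160 TPM). On the log2 scale only C4b in intact mutant mouse 3 stood apart. The same injured wild-type mouse 3 had the highest endothelial and adipocyte marker sums of the 16 libraries (179 and 51.3 TPM). It was also highest in the mast cell (41.2 TPM), lymphocyte (9.45 TPM) and red blood cell sums (1445 TPM). Injured mutant mouse 2 had the highest macrophage and neutrophil sums (7702 and 925 TPM). The part of these sums was not tested. C4b values lay in opposite directions with injury in the 2 genotypes. All 4 injured wild-type mice lay above the mean of intact wild-type mice and all 5 injured mutants below the mean of intact mutants, and the limma difference of -2.76 between the injury effects did not pass (adjusted p = 0.497). It was -2.04 without intact mutant mouse 3. That mouse carries the intact mutant mean, which is 193 TPM with it and 74.8 TPM without it, and injured mutant mouse 4 (89.9 TPM) lies above the latter.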

How the results depend on the processing

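With injury in mutants the 6 called members ranged from 4 to 6 when 1 mouse was left out and were 4 to 6 under the other settings, except 0 with only the mutants named M. The replicate block gave 5, C2 moving to -0.99 (adjusted p = 0.0518). Same-numbered libraries did not deviate together (21 pairs, median r -0.03, range -0.22 to 0.15), and 3 of 16 correlated best with their own number. In wild-type injury 0 became 0 to 2 when 1 mouse was left out (C3 and C3ar1 without injured mouse 1). Between genotypes in injured discs 0 became 1 (C2) with sample weights and without the 3 libraries that stand apart, and 0 to 1 when 1 mouse was left out. No member was called under any setting between genotypes in intact discs or for the interaction. C4b in mutants was lost when any 1 of 6 of the 9 mutant mice was left out (adjusted p 0.0525 to 0.151), and also with sample weights (0.101), only the compared groups (0.109), no filter (0.0752) and no trend (0.0582), and without the 3 libraries (-0.80, 0.243). C3 in mutants was lost with no filter (0.0752), no trend (0.0580), a pseudocount of 0.1 (0.0501), only A8 (0.208), only M (0.358) and without the 3 libraries (0.0523). Directions that turned were of differences that were not called. Without the 3 libraries these were C3 interaction 0.15, C3ar1 intact genotype -0.31, C5ar1 intact genotype -0.20, Cfd injured genotype 0.35, Cfd mutant injury 0.34 and Serping1 interaction 0.63. With sample weights they were C3ar1 and C5ar1 intact genotype -0.13 and -0.044, Cfd mutant injury 0.24 and Serping1 interaction 0.26. With only A8 they were C3ar1 intact genotype -0.22 and Cfd interaction -0.21, with only M Cfb injured genotype -0.022 and Cfd mutant injury 0.82, and Cfd mutant injury was 0.0074 with median-of-ratios scaling and 0.0068 with quantile normalization. Leaving out 1 mouse gave C1ra injured genotype -0.11 to 0.74, intact genotype -0.089 to 0.22 and interaction -0.22 to 0.63, C3 interaction -0.68 to 0.069, C3ar1 intact genotype -0.31 to 0.32, C5ar1 intact genotype -0.20 to 0.41, Cfb injured genotype -0.24 to 0.48, Cfd injured genotype -1.15 to 0.16 and mutant injury -0.52 to 0.26, and Serping1 injured genotype -0.40 to 1.12 and interaction -0.83 to 0.69. The cause was not tested. Over all genes, calls ranged from 2 (without intact wild-type mouse 1) to 452 (without injured wild-type mouse 1) for wild-type injury, against 28 with all mice. They were 725 (only M) to 8559 (sample weights) for mutant injury, against 7438, and 1 to 8 for intact genotype, against 4. They were 2 (only A8) to 2253 (without injured wild-type mouse 3) for injured genotype, against 222, and 0 to 24 (without the 3 libraries) for the interaction, against 0. Of the regulators, Cd55b was lost without intact mutant mouse 1 or 2 or injured mutant mouse 3, and both scalings moved the median of all genes by under 0.1.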
